A study of Mus musculus with 24 samples.

Results

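The genes described here are 10 markers of the contractile and supporting cells of blood vessel walls: Acta2, Myh11, Tagln, Cnn1, Myl9, Lmod1, Smtn, Rgs5, Pdgfrb and Cspg4. They were chosen by symbol from the deposited count tables, and are 10 of the 38013 genes whose identifier is in both tables. The data are RNA sequencing counts of whole inguinal subcutaneous white fat from C57BL/6J mice, in 24 libraries. All groups were transgenic for AMPKγ1, a regulatory subunit of the energy-sensing kinase AMPK: the subunit was wild-type in WT-Tg mice and the gain-of-function form D316A in D316A-Tg mice. The 4 groups of 6 libraries were WT-Tg and D316A-Tg mice on chow, aged 16 weeks, and WT-Tg and D316A-Tg mice aged 24 weeks on a diet with 45% fat (HFD). The promoter that drives the transgene is not given in the sources used here. No group without a transgene was analysed here. Whether the 6 libraries of a group are 6 animals is not stated, so p-values here rest on the spread between samples, part of which may be technical.

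Mural cells wrap the endothelial tubes of blood vessels. Smooth muscle cells encircle arteries, arterioles and veins and contract through actin and smooth muscle myosin, whereas pericytes sit on capillaries within the basement membrane. Endothelial PDGF-B recruits pericytes through the receptor PDGFRβ, and serum response factor with its myocardin-family cofactors switches on the contractile genes through a DNA element called the CArG box. In white fat, mural cells of the vessel wall have also been described as a source of fat cell progenitors. In bulk tissue, fewer cells of a type and less RNA per cell cannot be told apart.

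The CArG box, a pair of C bases and a pair of G bases around a core of A or T bases, is shown first because serum response factor acts on contractile genes through it. RefSeq promoter windows on GRCm38.p6, from 250 bases before to 50 bases after the start, were examined for 7 of the 10 genes, all but Myh11, Tagln and Pdgfrb. Myl9 was the only one of the 7 with a full box, against 1.63% of the 32851 promoter windows of all genes. Allowing 1 core base other than A or T, 2 of the 7 held a box (Myl9 and Acta2), against 9.98% of all windows. The box reads the same on both strands as a pattern, so 1 search covers both. A match describes letters only, and no binding was measured here. The stretch of Myl9 below is chr2:156775214-156775419 on the plus strand, the part of the window before the first base of the annotated gene, with its boxes in capitals. The first box, at bases -161 to -152 from the RefSeq start, has a core of 6 A or T bases, and the second, at -99 to -90, has 5. For Acta2, whose boxes lie within the annotated GENCODE gene, 30 bases are given around each of its boxes, at -84 to -75 and -34 to -25. They are chr19:34255438-34255467 and chr19:34255388-34255417 on the minus strand, and each box has 5 core A or T bases.
Myl9: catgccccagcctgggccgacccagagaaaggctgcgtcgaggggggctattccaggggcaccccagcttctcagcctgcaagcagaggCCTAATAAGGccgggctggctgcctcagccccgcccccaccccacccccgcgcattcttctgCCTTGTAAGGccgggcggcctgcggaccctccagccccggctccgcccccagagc
Acta2 box 1: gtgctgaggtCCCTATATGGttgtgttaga
Acta2 box 2: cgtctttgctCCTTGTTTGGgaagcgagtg

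Library totals ran from 13254536 to 22748132 counts, and no pair of replicates was near-identical (lowest chi-square per degree of freedom 14.4 over 60 pairs). Levels are CPM, counts scaled to a common library size, after TMM scaling of all 24 libraries together. Per the labels' protocols the fat was freed of its lymph node, but Glycam1, a gene of lymph node high endothelial venules, was above 1 CPM in 11 libraries: 4 of WT-Tg chow (1 to 4), 2 of D316A-Tg chow (8 and 11), 1 of WT-Tg HFD (3) and 4 of D316A-Tg HFD (7, 8, 9 and 11). These are called lymph-node-containing below. The nearest value above the threshold was 1.85 CPM in D316A-Tg HFD 9 and the nearest below it was 0.304 CPM in D316A-Tg HFD 12, both with TMM scaling within the HFD table. The lymph node markers, 12 genes, summed to 223.0 to 1666 CPM in the lymph-node-containing libraries and to 5.39 to 37.3 CPM in the other 13. Skeletal muscle markers also varied within groups. Their summed level over 10 genes was 12.5 to 9966 CPM in WT-Tg chow, 10.1 to 506.1 CPM in D316A-Tg chow, 16.5 to 191.2 CPM in WT-Tg HFD and 197.4 to 19854 CPM in D316A-Tg HFD. No marker gene of these lists was at 0 in every library of a group. The defining markers of vessel wall cells were present: each of the 10 genes had counts in every library.

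Per kilobase of exon, which allows levels to be compared between genes, Rgs5 had the highest mean in 3 of the 4 groups. Positions here are on GRCm38, from GENCODE M21. Rgs5 encodes a regulator of G protein signalling that marks pericytes (ENSMUSG00000026678, chr1:169655501-169695813, plus strand), and its mean was 47.7 ± 14.1 CPM per kb in WT-Tg chow (SD, n = 6). Behind it in that group came Myl9 at 34.1 ± 17.7, Tagln at 31.3 ± 12.6 and Acta2 at 27.7 ± 13.6 CPM per kb. The means of these 3 neighbours lay within their SDs of each other, and so did those of Rgs5 and Myl9. Pdgfrb at 13.7 ± 2.74, Cspg4 at 8.66 ± 2.23, Smtn at 7.51 ± 3.52 and Myh11 at 6.01 ± 2.399 CPM per kb followed, of which Cspg4 and Smtn, and Smtn and Myh11, lay within their SDs of each other. Lmod1 at 1.11 ± 0.694 and Cnn1 at 0.591 ± 0.767 CPM per kb were the lowest, and these 2 genes were the lowest in each of the other groups too. On HFD, Acta2 moved up the order, to the second place in WT-Tg with 59.8 ± 16.8 CPM per kb and to the first in D316A-Tg with 57.0 ± 54.2 CPM per kb.

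**Figure D1:**
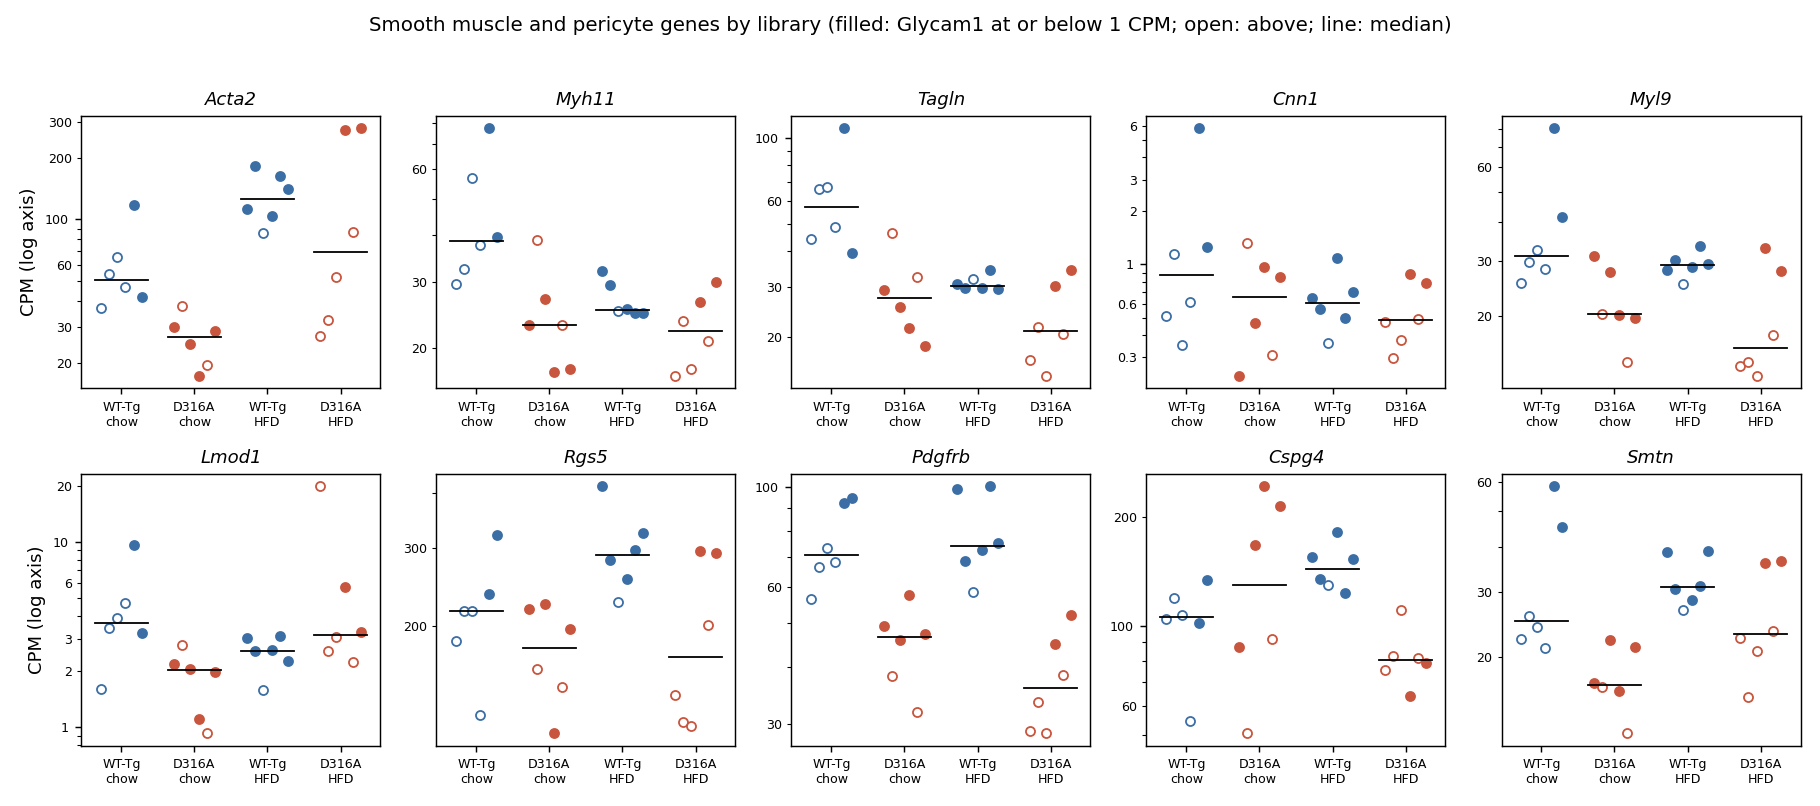
CPM on a log axis for each of the 10 genes in the 24 libraries, by group, with filled points for libraries with Glycam1 at or below 1 CPM, open points for those above, and a line at the group median. WT-Tg chow 5 holds the highest value of its group for Acta2 (118.1 CPM), Tagln (107.9 CPM), Myl9 (80.2 CPM) and Cnn1 (5.84 CPM), and D316A-Tg HFD 10 and 12 hold the highest Acta2 values of all libraries.

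On chow, Acta2, Tagln and the PDGF receptor gene Pdgfrb were lower in D316A-Tg than in WT-Tg fat, and the other contractile genes had negative values that missed the threshold. With all 12 libraries, 3 of the 10 genes were lower past the threshold (Acta2, Tagln and Pdgfrb) and 0 higher, where 3.25% of the 15249 genes tested were lower and 5.3% higher. The threshold was a Benjamini-Hochberg adjusted p below 0.05 in edgeR's quasi-likelihood test over all genes tested. The log2 fold change was negative for 9 of the 10, with a median of -0.90, against -0.07 over all genes tested.

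Acta2 encodes smooth muscle α-actin, the actin of the contractile filaments (ENSMUSG00000035783, chr19:34241090-34255590, minus strand). Its level had a lowest, median and highest value of 37.2, 50.7 and 118.1 CPM in WT-Tg chow and of 17.3, 26.6 and 37.7 CPM in D316A-Tg chow. All but 1 of the D316A-Tg libraries lay below every WT-Tg library. The log2 fold change was -1.21 (SE 0.293, edgeR adjusted p = 0.0338). Acta2 is close in sequence to the skeletal actin gene Acta1 and to Actg2, and how shared reads were counted is not given in the sources used here. The library with the most skeletal muscle marker RNA of all, D316A-Tg HFD 7, had an Acta2 level of 27.1 CPM, the lowest of its group. The 2 libraries of that group without lymph node had the highest Acta2 levels, 274.4 and 278.5 CPM. By summed CPM they too held more skeletal muscle marker RNA than any WT-Tg HFD library. Whether reads of Acta1 were counted as Acta2 was not tested.

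Tagln encodes transgelin (SM22α), an actin-binding protein of smooth muscle (ENSMUSG00000032085, chr9:45929619-45936058, minus strand). Its values were 39.5, 57.4 and 107.9 CPM (lowest, median, highest) in WT-Tg chow and 18.6, 27.4 and 46.3 CPM in D316A-Tg chow, and 5 of 6 D316A-Tg libraries lay below every WT-Tg library. The log2 fold change was -1.10 (SE 0.279, edgeR adjusted p = 0.0368). Exons of genes on the other strand, Pcsk7 and the predicted gene Gm48529, cover 67.9% of the Tagln exon length, so its counts are uncertain where strand use in counting is not known.

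Myh11 encodes the smooth muscle myosin heavy chain (ENSMUSG00000018830, chr16:14194535-14291372, minus strand), and its values were 29.6, 38.7 and 77.3 CPM in WT-Tg chow and 17.2, 23.1 and 38.9 CPM in D316A-Tg chow. Its effect was -0.90 (SE 0.271, edgeR adjusted p = 0.0576). Smtn encodes smoothelin, a cytoskeletal protein of contractile smooth muscle (ENSMUSG00000020439, chr11:3517523-3540612, minus strand, with 16.3% of its exon length under the predicted genes Gm11946 and Gm11947 on the other strand). Smtn had 21.1, 25.1 and 58.6 CPM in WT-Tg chow and 12.4, 16.8 and 22.2 CPM in D316A-Tg chow, for -0.91 (SE 0.273, adjusted p = 0.0579). Both genes thus missed the threshold narrowly, and 5 of 6 and 4 of 6 D316A-Tg libraries respectively lay below every WT-Tg library. Myl9 encodes the regulatory light chain of smooth muscle myosin (ENSMUSG00000067818, chr2:156775420-156781658, plus strand) and had -0.84 (SE 0.297, adjusted p = 0.089). Lmod1 encodes leiomodin 1, an actin filament nucleator (ENSMUSG00000048096, chr1:135324807-135368065, plus strand), and had -1.25 (SE 0.412, adjusted p = 0.0735). Cnn1 encodes calponin 1, an actin-binding regulator of contraction (ENSMUSG00000001349, chr9:22099216-22109630, plus strand). It was scarce, at 0.236 to 1.31 CPM in D316A-Tg chow, and had -1.22 (SE 0.711, adjusted p = 0.262).

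Among the pericyte genes, Pdgfrb was lower. It encodes PDGFRβ, the receptor through which PDGF-B acts on mural cells (ENSMUSG00000024620, chr18:61045150-61085061, plus strand). Its values were 56.5, 70.9 and 94.2 CPM in WT-Tg chow and 31.9, 46.7 and 57.6 CPM in D316A-Tg chow, and only D316A-Tg chow 10 overlapped the WT-Tg range. The log2 fold change was -0.74 (SE 0.167, adjusted p = 0.0268). Rgs5 had 125.8, 216.8 and 320.9 CPM in WT-Tg chow and 114.5, 178.8 and 224.3 CPM in D316A-Tg chow, and its log2 fold change of -0.30 (SE 0.227) did not pass (adjusted p = 0.384). Cspg4 encodes NG2, a proteoglycan of pericytes and of other immature cells (ENSMUSG00000032911, chr9:56865033-56899870, plus strand). Its values spread widely, at 54.5, 105.6 and 133.4 CPM in WT-Tg chow and 50.4, 129.6 and 243.2 CPM in D316A-Tg chow, and its log2 fold change of 0.46 (SE 0.361) did not pass (adjusted p = 0.395).

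The chow calls were thin. Leaving out 1 library at a time, the Acta2 call was lost without WT-Tg 2, 3 or 4 or D316A-Tg 7, 9, 10 or 12 (7 of 12 fits, log2 fold change -1.28 to -1.13, adjusted p up to 0.0854). The Tagln call was kept in 3 of 12 fits, those without WT-Tg 6, D316A-Tg 8 or D316A-Tg 11, and in the others the log2 fold change was -1.19 to -0.86 (adjusted p up to 0.101). The Pdgfrb call was lost without WT-Tg 3 or 4 or D316A-Tg 7, 9 or 12 (5 of 12 fits, -0.79 to -0.75, adjusted p up to 0.0681). With the skeletal muscle score of each library, the mean log2 CPM of the 10 muscle markers, as a covariate, 0 of the 10 genes passed, with Acta2 at -1.15 (adjusted p = 0.0683) and Pdgfrb at -0.65 (adjusted p = 0.0659). The DESeq2 test called 7 of the 10, and 2977 genes of all.

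Without the 6 lymph-node-containing chow libraries, which left 2 WT-Tg and 4 D316A-Tg libraries, the same comparison called more of the genes. Then 7 of the 10 were lower and 0 higher, where 7.71% of 15064 genes were lower and 7.59% higher. The 7 were Acta2, Myh11, Tagln, Myl9, Lmod1, Smtn and Pdgfrb, and the median log2 fold change of the 10 was -1.45 against 0.00 over all genes tested. Smtn was at 45.2 and 58.6 CPM in the WT-Tg libraries and at 16.99, 22.2, 16.2 and 21.3 CPM in D316A-Tg 7, 9, 10 and 12. It fell by 1.44 on the log2 scale (SE 0.166, adjusted p = 0.00918). Myh11 was at 77.3 and 39.7 CPM in the WT-Tg libraries and at 23.04, 27.0, 17.2 and 17.6 CPM in the D316A-Tg libraries. Its log2 fold change was -1.47 (SE 0.294, adjusted p = 0.025). Acta2 was at 118.1 and 41.8 CPM in the WT-Tg libraries and at 29.9, 24.6, 17.3 and 28.6 CPM in the D316A-Tg libraries, so the groups did not overlap. Its log2 fold change was -1.67 (SE 0.409, adjusted p = 0.044). Cspg4 stayed apart from the others, at 101.9 and 133.4 CPM in the WT-Tg libraries and at 87.0, 167.3, 243.2 and 213.9 CPM in the D316A-Tg libraries (0.59, SE 0.4, adjusted p = 0.35).

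Of the 2 WT-Tg chow libraries without lymph node, WT-Tg 5 held Schwann cell markers at a summed 918.7 CPM over 6 genes, against 121.6 to 241.2 CPM in the other WT-Tg chow libraries. WT-Tg 6 held skeletal muscle markers at 9966 CPM and WT-Tg 5 at 1214 CPM, against 18.6 to 250.4 CPM in the 4 D316A-Tg libraries. The part of these cells in the difference was not tested apart from the library they came with. Without WT-Tg 5 as well, which left 1 WT-Tg library whose spread is assumed to be that of the other group, Acta2 was at -0.76 (adjusted p = 0.204) and Tagln at -0.75 (adjusted p = 0.157), and 2 of the 10 genes, Pdgfrb and Smtn, were still lower, among 338 genes called in all. Without WT-Tg 6 instead, 8 of the 10 were lower, among 501 called in all. Both settings were added after the data were seen.

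**Figure D2:**
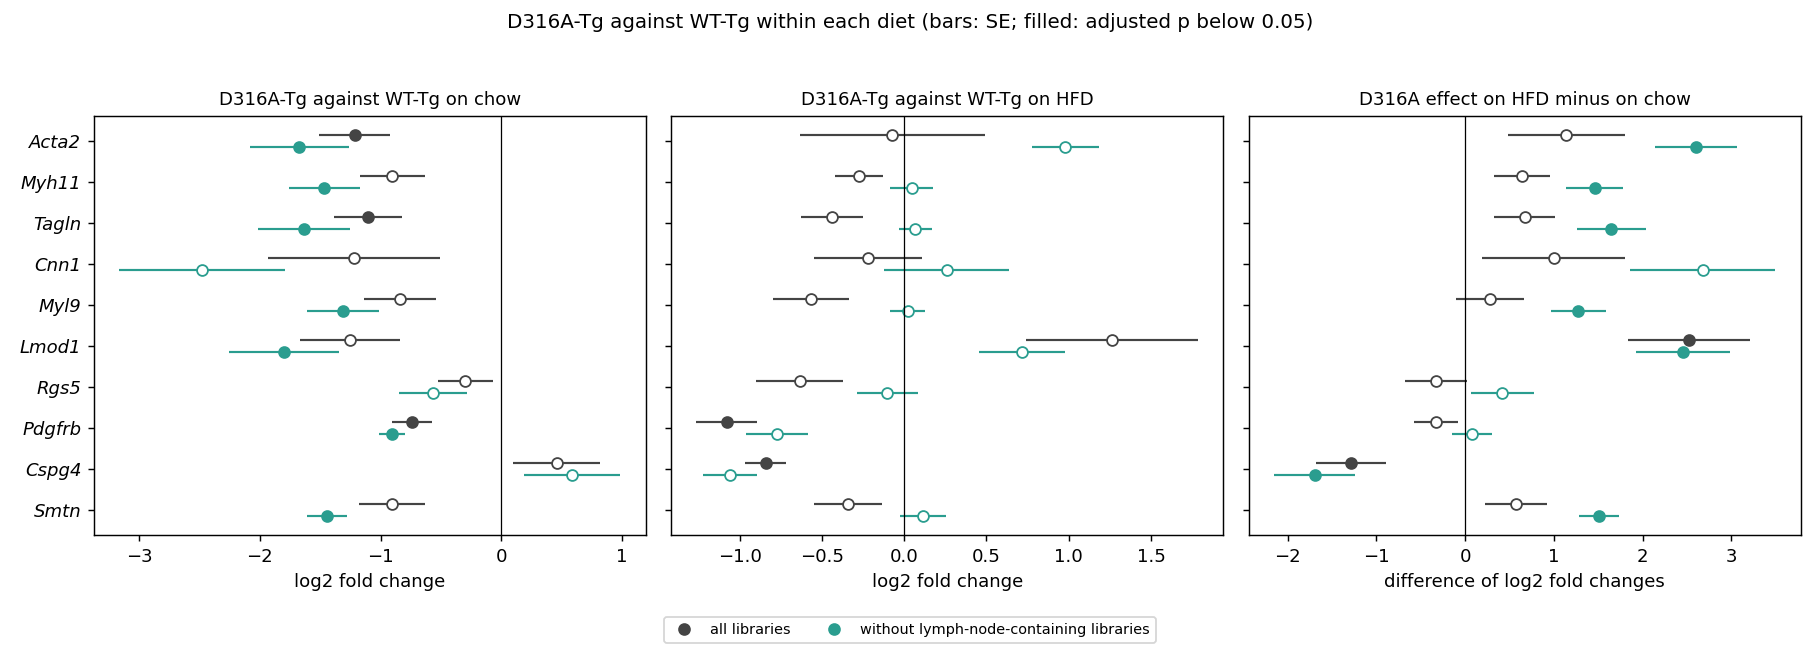
Log2 fold change of D316A-Tg against WT-Tg on chow (left) and on HFD (middle), and the difference between them (right), for each gene with its SE, with all libraries (grey) and without lymph-node-containing libraries (green), filled where the adjusted p is below 0.05. On chow the values lie below 0 for 9 of 10 genes in both sets of libraries, and on HFD without lymph-node-containing libraries those of Myh11, Tagln and Myl9 are near 0.

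On HFD, Pdgfrb and Cspg4 were lower in D316A-Tg fat, while Rgs5 and the contractile genes did not pass the test. These 2 were the only ones of the 10 called, and 0 were higher, where 3.96% of the 14649 genes tested were lower and 4.51% higher. The median log2 fold change of the 10 was -0.39, against 0.01 over all genes tested. Pdgfrb had a lowest, median and highest value of 58.6, 74.0 and 100.5 CPM in WT-Tg HFD and of 28.6, 36.04 and 52.2 CPM in D316A-Tg HFD. The groups did not overlap. The log2 fold change was -1.08 (SE 0.184, edgeR adjusted p = 0.0159). Cspg4 had 123.0, 143.3 and 180.8 CPM in WT-Tg HFD and 64.0, 80.1 and 110.6 CPM in D316A-Tg HFD, again with no overlap, for a log2 difference of -0.84 (SE 0.128, adjusted p = 0.00981). Both calls held in all 12 fits that left out 1 library, and the highest adjusted p was 0.0391 for Pdgfrb and 0.0321 for Cspg4. The third pericyte gene, Rgs5, had 226.5, 290.1 and 414.8 CPM in WT-Tg HFD and 119.2, 170.5 and 295.3 CPM in D316A-Tg HFD, for -0.64 (SE 0.264, adjusted p = 0.129).

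Both HFD calls held with a term for lymph node in the fit, but neither held without the lymph-node-containing libraries or with the muscle score as a covariate. Without the 5 lymph-node-containing HFD libraries, which left 5 WT-Tg and 2 D316A-Tg libraries, edgeR called 0 of 15131 genes (0% higher and 0% lower) although 1840 had an unadjusted p below 0.05. In that set Cspg4 was at 64.0 and 78.9 CPM in D316A-Tg 10 and 12, against 123.0 to 180.8 CPM in the 5 WT-Tg libraries, and its log2 fold change was -1.06 (SE 0.163, adjusted p = 0.153). Pdgfrb was at 45.1 and 52.2 CPM in the 2 D316A-Tg libraries against 68.6 to 100.5 CPM, for -0.78 (SE 0.188, adjusted p = 0.217). With the muscle score the values were -0.67 for Cspg4 and -1.02 for Pdgfrb, both with an adjusted p of 0.761, and that fit called 0 genes of all. Each of the 10 muscle markers was higher in D316A-Tg than in WT-Tg on HFD. By summed CPM every D316A-Tg HFD library held more of them than any WT-Tg HFD library, though narrowly (lowest 197.4 against highest 191.2 CPM). By their mean log2 CPM the groups overlapped slightly (lowest 3.59 in D316A-Tg HFD, highest 3.70 in WT-Tg HFD). Muscle content and genotype can thus hardly be told apart on this diet.

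Several contractile genes on HFD differed between D316A-Tg libraries with and without lymph node. Acta2 was at 274.4 and 278.5 CPM in D316A-Tg HFD 10 and 12, the 2 without lymph node, and at 27.1, 32.3, 52.2 and 87.0 CPM in 7, 8, 9 and 11. In WT-Tg HFD it was at 85.5 CPM in library 3, the 1 with lymph node, and at 104.2 to 181.5 CPM in the other 5. With all libraries the log2 fold change was -0.07 (SE 0.563, adjusted p = 0.942), and without the lymph-node-containing libraries 0.98 (SE 0.204, adjusted p = 0.217). Myl9 showed the same split, at 27.8 and 32.9 CPM in the 2 D316A-Tg libraries without lymph node and at 12.8 to 17.4 CPM in the 4 with it. Without the lymph-node-containing libraries, Myh11 (0.05, SE 0.13), Tagln (0.07, SE 0.0981), Myl9 (0.02, SE 0.108) and Smtn (0.11, SE 0.142) each had a log2 fold change smaller than its SE. Lmod1 was at 19.98 CPM in D316A-Tg HFD 7, whose skeletal muscle markers summed to 19854 CPM, and at no more than 5.69 CPM in the other HFD libraries.

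The difference between the genotype effects on the 2 diets was tested in all 24 libraries together. Lmod1 was the only one of the 10 with a higher effect on HFD than on chow, and Cspg4 the only one with a lower effect, where 6.08% of the 16072 genes tested were higher and 6.86% lower. The difference was 2.52 for Lmod1 (SE 0.687, adjusted p = 0.0206) and -1.29 for Cspg4 (SE 0.395, adjusted p = 0.0358) on the log2 scale. With the muscle score as a covariate the Lmod1 difference was 1.17 (adjusted p = 0.281). The Cspg4 call was lost in 13 of 24 fits that left out 1 library, with differences of -1.33 to -1.15 and adjusted p-values up to 0.0625. The lost fits were those without WT-Tg chow 1, 3 or 4, D316A-Tg chow 9, 10 or 12, WT-Tg HFD 1, 4 or 6, or D316A-Tg HFD 7, 8, 10 or 11.

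Without the 11 lymph-node-containing libraries, 6 of the 10 genes had a higher genotype effect on HFD than on chow and 1 a lower one, where 4.16% of 15994 genes were higher and 5.23% lower. The 6 were all contractile: Acta2 (2.60, SE 0.462, adjusted p = 0.00904), Smtn (1.504, SE 0.226, adjusted p = 0.00659), Myh11, Tagln, Myl9 and Lmod1. The 1 lower gene was Cspg4, at -1.70 (SE 0.458, adjusted p = 0.0397). Pdgfrb, whose log2 fold change was -0.90 on chow and -0.78 on HFD in these libraries, had a difference of 0.08 (SE 0.229, adjusted p = 0.878). That set holds 2 WT-Tg chow and 2 D316A-Tg HFD libraries, so the contractile difference rests on these 4 libraries. Their skeletal muscle markers summed to 1214 and 9966 CPM (WT-Tg chow 5 and 6) and to 5163 and 197.4 CPM (D316A-Tg HFD 10 and 12).

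The comparison of HFD with chow was made within each genotype, in the fit of 24 libraries. The chow mice were younger, and diet, age, base-calling software version and count table cannot be told apart. In WT-Tg, Acta2 was higher on HFD while Myh11, Tagln and Cnn1 were lower, so 1 of the 10 genes was higher and 3 lower, where 25.9% of 16072 genes were higher and 34.5% lower. The shares of the 10 were no larger than those over all genes. Acta2 had a lowest, median and highest value of 85.5, 126.5 and 181.5 CPM on HFD, against 37.2, 50.7 and 118.1 CPM on chow, and its log2 fold change was 1.11 (SE 0.471, adjusted p = 0.0458). Tagln had 29.5, 30.3 and 34.3 CPM on HFD, against 39.5, 57.4 and 107.9 CPM on chow, so the WT-Tg groups did not overlap, and its log2 fold change was -1.004 (SE 0.244, adjusted p = 0.00146). Myh11 had 24.8, 25.3 and 32.1 CPM on HFD, for -0.76 (SE 0.222, adjusted p = 0.00599). Cnn1 was at -1.32 (SE 0.564, adjusted p = 0.0476), and without WT-Tg chow 5 it was at -0.24 (adjusted p = 0.637). The Tagln and Myh11 calls held in all 24 fits that left out 1 library. The Acta2 call was lost in 13 of 24 such fits (1.00 to 1.19, adjusted p up to 0.091), those without WT-Tg chow 1, 2, 3, 4 or 6, D316A-Tg chow 7, 9 or 12, or WT-Tg HFD 1, 2, 4, 5 or 6. The Cnn1 call was lost in 16 of 24, all but those without WT-Tg chow 1, 3, 4 or 6, D316A-Tg chow 7, 8 or 11, or WT-Tg HFD 4.

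In D316A-Tg, Acta2 and Lmod1 were higher on HFD and Cspg4 was lower, where 17.9% of 16072 genes were higher and 19.3% lower. Acta2 had 27.1, 69.6 and 278.5 CPM on HFD (lowest, median, highest), against 17.3, 26.6 and 37.7 CPM on chow. Its log2 fold change was 2.25 (SE 0.488, adjusted p = 0.000867), and the highest adjusted p with any 1 library left out was 0.0037. Lmod1 was at 1.73 (SE 0.493, adjusted p = 0.00808), and at 0.86 (adjusted p = 0.0685) without D316A-Tg HFD 7. Cspg4 was at -0.79 (SE 0.28, adjusted p = 0.0288), and its call was lost without D316A-Tg chow 10 or 12 or D316A-Tg HFD 7, 10 or 12 (-0.78 to -0.63, adjusted p up to 0.0839).

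Without the lymph-node-containing libraries, Acta2 on HFD against chow was at 3.42 in D316A-Tg (SE 0.339, adjusted p = 7.78e-06) and at 0.82 in WT-Tg (SE 0.347, adjusted p = 0.0664). In D316A-Tg its values were 274.4 and 278.5 CPM on HFD against 17.3 to 29.9 CPM on chow. In that set 3 of the 10 genes were higher in D316A-Tg (Acta2, Smtn and Lmod1) and 1 lower (Cspg4), where 26.8% of 15994 genes were higher and 25.5% lower. In WT-Tg 0 of the 10 were higher and 6 lower (Myh11, Tagln, Cnn1, Myl9, Lmod1 and Smtn), where 24.9% were higher and 25.6% lower. The WT-Tg chow side of that comparison is libraries 5 and 6 alone.

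Acta2 was then set against Myh11 within each library. The ratio of Acta2 to Myh11 counts within a library, a measure chosen after the values were seen, had a lowest, median and highest value of 1.05, 1.25 and 1.68 in WT-Tg chow and of 3.39, 4.87 and 6.62 in WT-Tg HFD. The groups did not overlap (two-sided exact permutation p = 0.00216, the smallest that 6 against 6 can give, adjusted p = 0.026 over 12 ratio tests). In D316A-Tg the ratio was 0.847, 0.987 and 1.63 on chow and 1.37, 3.57 and 10.4 on HFD (exact permutation p = 0.00649, adjusted p = 0.039). The 2 highest ratios were those of D316A-Tg HFD 10 and 12. Between the genotypes within a diet the Acta2 to Myh11 ratio did not pass (adjusted exact permutation p = 0.269 on chow and 0.629 on HFD). The ratios of Tagln and of Myl9 to Myh11 passed in none of the 4 comparisons, with adjusted exact permutation p-values from 0.143 to 0.675.

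**Figure D3:**
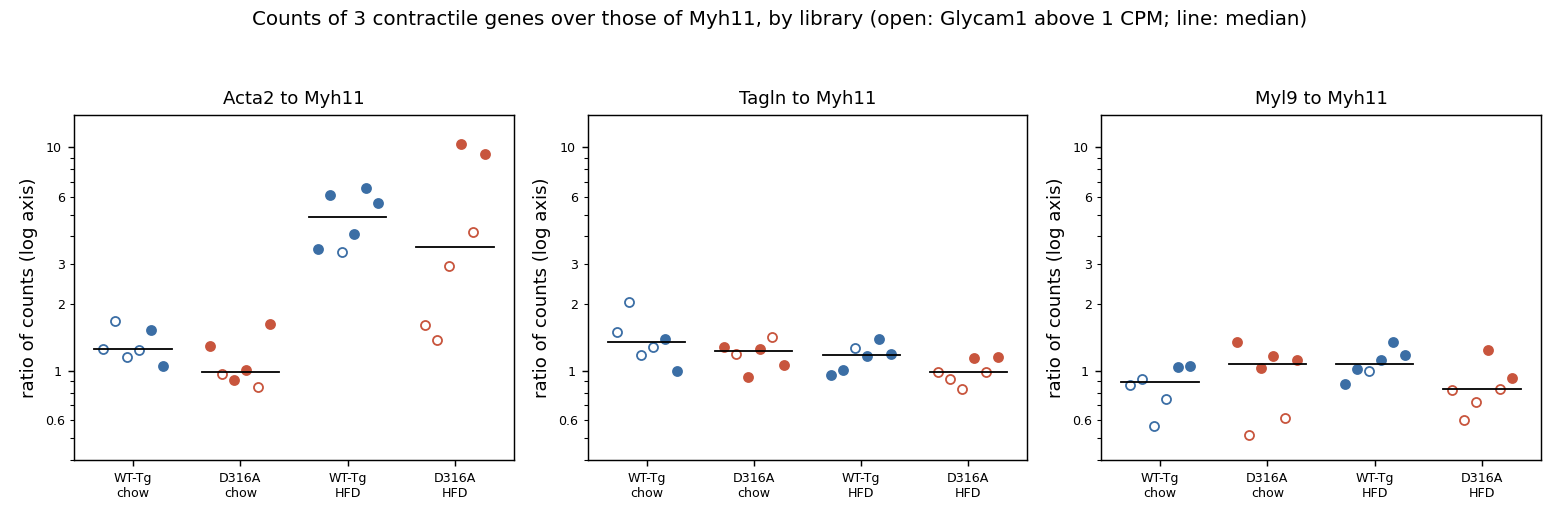
Ratio of the counts of Acta2 (left), Tagln (middle) and Myl9 (right) to those of Myh11 on a log axis, by group, with open points for libraries with Glycam1 above 1 CPM and a line at the median. The Acta2 to Myh11 ratio lies at or below 1.68 in all chow libraries and at or above 3.39 in all WT-Tg HFD libraries, while the other ratios overlap between groups.

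Myoepithelial cells also make Acta2, and the list of 8 epithelial and myoepithelial markers was examined beside it. Its summed level was 11.1 to 39.7 CPM in WT-Tg chow, 18.6 to 146.1 CPM in D316A-Tg chow, 134.1 to 423.4 CPM in WT-Tg HFD and 16.4 to 494.8 CPM in D316A-Tg HFD. Oxtr, the oxytocin receptor gene, named after its values were seen, was the most abundant of the 8 in every HFD library. It made up most of the sum there. On HFD against chow, Oxtr was higher in WT-Tg (4.64) and in D316A-Tg (2.57). In WT-Tg, Krt5 was also higher (4.24) and Epcam lower (-2.98). In D316A-Tg, Krt5 (-7.27), Krt8 (-2.74) and Krt18 (-3.60) were lower. Krt14 and Krt17 were not tested, and the other tested genes of the list did not pass. Oxtr was at 299.2 and 491.8 CPM in D316A-Tg HFD 10 and 12, at 10.6, 19.4, 60.6 and 35.97 CPM in 7, 8, 9 and 11, and at 127.0 to 383.1 CPM in WT-Tg HFD. In chow libraries it was at 4.67 to 65.0 CPM. The keratin genes Krt5, Krt14 and Krt17, which mark the basal layer that includes myoepithelial cells, were listed at 0 CPM in D316A-Tg HFD 10 and 12, the libraries with the most Acta2, and at no more than 0.125 CPM in the other D316A-Tg HFD libraries. Trp63, a transcription factor of the same basal cells, was at 4.36 and 2.63 CPM in 10 and 12 and at 3.44 to 3.86 CPM in the other D316A-Tg HFD libraries. WT-Tg HFD 5 held 23.9 CPM of Krt5, the most of all libraries, with Krt14 at 10.1 CPM and Krt17 at 1.15 CPM. It also had the highest Oxtr level (383.1 CPM) and the highest Acta2 to Myh11 ratio (6.62) of its group. In the other WT-Tg HFD libraries these keratin genes were at no more than 1.39 CPM. On chow, D316A-Tg 8 held 32.5 CPM of Krt14, the most of all libraries, and the highest Acta2, Tagln and Myh11 levels of its group. High Acta2 and high Oxtr thus occurred in the same HFD libraries, and their relation to each other was not tested.

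**Figure D4:**
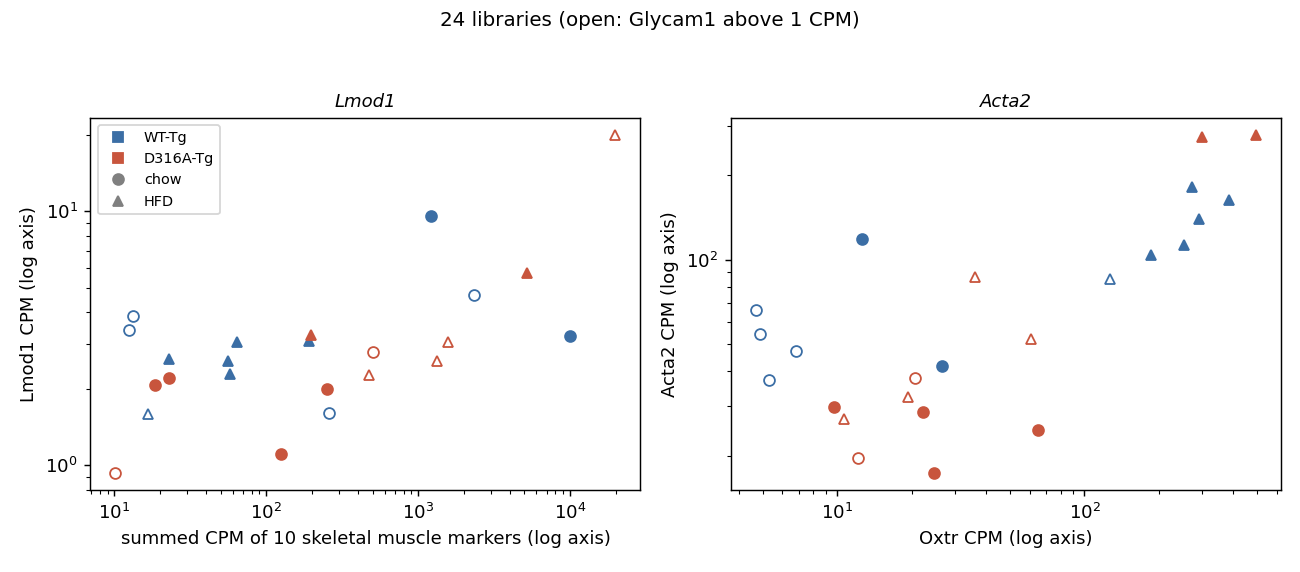
Left, Lmod1 CPM against the summed CPM of 10 skeletal muscle markers, and right, Acta2 CPM against Oxtr CPM, in the 24 libraries on log axes, with circles for chow, triangles for HFD and open symbols where Glycam1 is above 1 CPM. D316A-Tg HFD 7 is the highest point of the left plot in both measures (19.98 and 19854 CPM), and D316A-Tg HFD 10 and 12 have the highest Acta2 values in the right plot, with 299.2 and 491.8 CPM of Oxtr.

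Within groups the contractile genes varied together. Over 24 libraries, as deviations of log2 CPM from the group means, all 21 pairs of the 7 contractile genes had a positive Pearson correlation, with a median of 0.46 and a range of 0.10 to 0.84. Rgs5 and Pdgfrb correlated positively with each contractile gene (14 of 14 pairs, median 0.42). Without lymph-node-containing libraries, over 13 libraries, the contractile pairs were still positive in 21 of 21 (median 0.52), but those of Rgs5 and Pdgfrb with contractile genes were positive in 6 of 14 (median -0.05). Cspg4 had correlations of -0.53 to 0.25 with the other 9 genes over 24 libraries, of which 4 were positive, and of -0.76 to 0.49 over the 13 libraries without lymph node, of which 3 were positive. Among the pericyte genes, Rgs5 and Pdgfrb correlated at 0.63 over 24 libraries and at -0.02 over the 13. Cspg4 correlated with Rgs5 at 0.06 and -0.40, and with Pdgfrb at 0.25 and 0.07, in the same 2 sets. These values describe libraries that share lymph node, muscle and adipocyte content, and they carry no test. Of 14364 other genes with a mean of at least 1 CPM, the 5 whose deviations were most like the mean of the 10 were Efcab4a (r = 0.90), Eng (0.86), Nrip2 (0.86), Rasip1 (0.85) and Map1b (0.84), over 24 libraries. Over the 13 libraries without lymph node their correlations were 0.71, 0.41, 0.65, 0.39 and 0.60.

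Other genes of mural cells were counted from lists drawn up by function. On HFD no gene at all was called without the lymph-node-containing libraries, so every HFD call of these lists was lost in that set. The shares over all genes tested were 3.25% lower and 5.3% higher on chow, and 3.96% lower and 4.51% higher on HFD. For the difference between diets they were 6.86% lower and 6.08% higher. On chow without lymph-node-containing libraries they were 7.71% lower and 7.59% higher. Of 20 other contractile genes tested on chow, 4 were lower in D316A-Tg and 0 higher, with a median of -0.87 against -0.07 over all genes. They were Cacna1c, the L-type calcium channel (-1.29, SE 0.338, adjusted p = 0.0402), Des, the intermediate filament desmin (-1.46, SE 0.389, adjusted p = 0.0415), Pcp4l1 (-1.75) and Tpm1, a tropomyosin (-2.41). Without the lymph-node-containing libraries these 4 were still lower on chow, and more genes of the list passed. Those with the lowest edgeR adjusted p were Tpm2 (-3.64, adjusted p = 0.00507), Synpo2 (-1.63, adjusted p = 0.00855), Flna (-0.82, adjusted p = 0.0137) and Actn1 (-0.67, adjusted p = 0.0177). Skeletal muscle also makes desmin and tropomyosins, and on HFD Des (2.91, SE 0.619, adjusted p = 0.0235), Tpm2 (3.51) and Tpm1 (2.80) were higher in D316A-Tg, as were all 10 skeletal muscle markers. The 1 lower gene of this list on HFD was Gucy1b1, the β1 subunit of the nitric oxide receptor of smooth muscle, at -0.99 (SE 0.156, adjusted p = 0.012). In the difference between diets 6 of 21 were higher and 0 lower, with Des at 4.39 and Tpm2 at 5.74.

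Of 13 other pericyte genes, 2 were lower in D316A-Tg on chow and 3 on HFD, with 0 higher on either diet and medians of -0.63 and -0.52. Kcnj8, a subunit of the pericyte ATP-sensitive potassium channel, was lower on both diets (-0.75, SE 0.148, adjusted p = 0.0196 on chow, and -0.94, SE 0.245, adjusted p = 0.0386 on HFD). Cox4i2 was the other one on chow (-0.63), and Rgs4 (-1.26) and Ndufa4l2 (-0.98) were the others on HFD. Without the lymph-node-containing libraries the chow calls of Kcnj8 (-0.55, adjusted p = 0.0996) and Cox4i2 (-0.44, adjusted p = 0.303) were lost. Other genes of this list were lower on chow in that set. They were Anpep (-0.77, edgeR adjusted p = 0.0221), Ndufa4l2 (-1.12, adjusted p = 0.0328), Rgs4 (-1.22, adjusted p = 0.0331) and Vtn (-1.71, adjusted p = 0.0365). In the difference between diets 0 of the 13 passed, while 1 had an unadjusted p below 0.05.

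Among the regulators of mural cells, Notch3, the Notch receptor of vascular smooth muscle and pericytes, was lower in D316A-Tg on both diets. It had a mean of 45.9 ± 10.3 CPM in the WT-Tg and of 20.9 ± 4.38 CPM in the D316A-Tg chow libraries (SD, n = 6), for -1.13 (SE 0.174, edgeR adjusted p = 0.00915), and of 51.8 ± 11.5 and 27.2 ± 7.74 CPM on HFD, for -0.94 (SE 0.2, adjusted p = 0.0235). Srf, the serum response factor that binds the CArG box, was lower on chow (-0.76, SE 0.154, adjusted p = 0.021), at 50.3 ± 9.20 and 29.7 ± 5.67 CPM. On HFD the Srf means were 32.1 ± 4.88 CPM (WT-Tg) and 35.2 ± 8.68 CPM (D316A-Tg), and the difference between the diets passed (0.89, SE 0.223, adjusted p = 0.0138). Without the lymph-node-containing libraries neither Srf call held, at -0.55 on chow (adjusted p = 0.0583) and 0.49 for the difference (adjusted p = 0.24), whereas Notch3 was lower on chow in that set too (-1.44, adjusted p = 0.00813). Mrtfa, a cofactor gene of the myocardin family, was lower on chow in that set (-0.86, edgeR adjusted p = 0.0113). Its difference between the diets passed there too (0.76, adjusted p = 0.00944). Heyl was also lower on chow in that set (-1.52, adjusted p = 0.0367). With all libraries these Mrtfa and Heyl results did not pass. Of 8 regulators tested, 2 were lower on chow and 4 on HFD (Heyl, Notch3, Foxs1 and Tbx18), and 0 were higher. Tbx18, a transcription factor of mural cells, also had a lower effect on HFD than on chow (-1.02, SE 0.288, adjusted p = 0.0245), a call that was lost without the lymph-node-containing libraries (-0.999, adjusted p = 0.169).

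Of 18 genes listed as ligands and receptors of vessel wall signalling, 2 were lower in D316A-Tg on chow and 4 on HFD, and 0 were higher. The list was not limited to genes made by endothelium and mural cells alone. Pdgfb, the ligand of PDGFRβ made by endothelial cells, was lower on both diets: 30.5 ± 9.70 against 16.5 ± 3.43 CPM on chow (-0.89, SE 0.211, adjusted p = 0.0316), and 35.3 ± 4.82 against 18.4 ± 5.87 CPM on HFD (-0.95, SE 0.196, adjusted p = 0.0224). Dll4, a Notch ligand of arterial endothelium, was lower on chow (-0.98, SE 0.257, adjusted p = 0.0407). Without the lymph-node-containing libraries the chow call of Pdgfb held (-1.26, adjusted p = 0.0116) and that of Dll4 did not (-0.86, adjusted p = 0.165). Genes newly lower on chow in that set included Tek (-0.74, edgeR adjusted p = 0.00978), Tgfb1 (-1.12, adjusted p = 0.0149) and Hbegf (-2.17, adjusted p = 0.0213). On HFD Agtr1a, an angiotensin II receptor of vascular smooth muscle (-1.09), Pdgfra (-0.54) and Ednrb (-0.87) were lower. Endothelial markers were lower too: 2 of 10 on chow and 4 of 10 on HFD, with medians of -0.76 and -0.75. Over all genes tested 3.25% were lower on chow and 3.96% on HFD. Without the lymph-node-containing libraries Pecam1, Cdh5, Vwf, Tie1, Egfl7 and Esam were lower on chow (log2 fold change -1.74 to -0.95), where 7.71% of all genes were. The summed level of the endothelial markers ran from 617.6 to 1163 CPM in WT-Tg chow and 414.6 to 764.6 CPM in D316A-Tg chow. On HFD it ran from 833.0 to 1041 CPM in WT-Tg and 455.3 to 902.2 CPM in D316A-Tg. Adipocyte markers, whose 8 genes summed to 18388 to 49402 CPM in WT-Tg chow and 23414 to 73228 CPM in D316A-Tg chow, had a median log2 fold change of 0.71 on chow, with 0 of 8 past the threshold and 2 of 8 at an unadjusted p below 0.05. Fibroblast markers, 8 genes, summed to 4396 to 8143 CPM in WT-Tg HFD and to 1864 to 5303 CPM in D316A-Tg HFD, and to 2055 to 6287 and 1507 to 5537 CPM in WT-Tg and D316A-Tg chow. On HFD their median log2 fold change was -0.69 and 1 of 8 was lower, Lum (-1.88, SE 0.411, adjusted p = 0.0246), and on chow 0 of 8 passed, with 0 at an unadjusted p below 0.05. The part of endothelial, adipocyte and fibroblast content in the results above was not tested.

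Between the diets, some genes of these lists moved the same way in both genotypes and others in opposite ways. Synpo2, an actin-binding protein of smooth muscle also called myopodin, was higher on HFD in WT-Tg (2.31, SE 0.34, adjusted p = 6.27e-06) and in D316A-Tg (2.99, SE 0.35, adjusted p = 3.7e-07), at 57.2 ± 15.02 and 284.3 ± 64.2 CPM in WT-Tg chow and HFD and at 34.7 ± 18.3 and 276.6 ± 144.7 CPM in D316A-Tg. Cald1, caldesmon, was higher on HFD by 1.56 in WT-Tg and 1.19 in D316A-Tg. Of 21 other contractile genes, 7 were higher and 5 lower on HFD in WT-Tg, and 10 higher and 0 lower in D316A-Tg, where 25.9% of all genes were higher and 34.5% lower in WT-Tg and 17.9% and 19.3% in D316A-Tg. The WT-Tg counts, and those of the pericyte genes and ligands in WT-Tg below, were near or below these shares. Vcl, vinculin (1.31 in WT-Tg and 0.76 in D316A-Tg), Prkg1, the cGMP-dependent kinase of smooth muscle (1.89 and 1.36), and the calsequestrin gene Casq2 (1.05 and 2.16) were higher in both genotypes. Des (-2.47 and 1.92), Tpm1 (-1.95 and 3.27) and Tpm2 (-2.54 and 3.20) were lower on HFD in WT-Tg and higher in D316A-Tg, and so were 8 of the 10 skeletal muscle markers. Of 13 other pericyte genes 4 were higher and 2 lower in WT-Tg, and Ndufa4l2 was the 1 gene higher in D316A-Tg (1.05, SE 0.261, adjusted p = 0.0029). Of the 18 ligands and receptors, 4 were higher and 1 lower in WT-Tg and 7 were higher in D316A-Tg. Pdgfd, another ligand of PDGFRβ, was higher in both (1.87 and 1.46), as was Ednrb, an endothelin receptor (1.82 and 1.22).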

How the data were processed

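Polyadenylated RNA of 24 libraries (6 in each of 4 groups) was sequenced with a stranded kit, per the labels' protocols. The values are the whole-number gene counts deposited by the authors as 2 tables of 12 libraries, chow (39017 genes) and HFD (38483), unnormalised. The submitters' processing notes name STAR 2.4.1, DESeq2 and mm10. For the counter, annotation and strand setting, the labels give nothing. Chow libraries used bcl2fastq 2.20.0.422 and HFD libraries bclfastq 2.16.0.10, per the labels. Library totals were 13254536 to 22748132 counts, so 1 count is at most 0.0787 CPM.

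Genes were tested with edgeR 4.0.16 in R 4.3.3 (TMM, filterByExpr, robust glmQLFit and glmQLFTest), within each table for genotype and over the 24 libraries and shared identifiers for the rest. Log2 CPM had a prior count of 2. The method was also run on simulated counts with known changes. Those counts held no differences in lymph node, muscle or Schwann cell content and no reduced sets of libraries. They do not bear on the calls that depend on these. Alternatives were DESeq2 1.42.0, RLE scaling, no filter, lymph node and muscle terms, 1 fit of all libraries, a replicate block and leaving out each library. Positions and exon lengths are from GENCODE M21 (GRCm38, the mm10 assembly).

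The 10 genes and the lists were chosen with earlier results of these data known. All 10 were named, with up to 4 called genes of lowest adjusted p per list and comparison, the 5 genes most like the 10, and Glycam1. Oxtr, Epcam, the keratin genes, Trp63, Lum and the endothelial genes were named after their values were seen. So were some genes of the diet comparison (Des, Tpm1, Tpm2, and Vcl, Prkg1 and Casq2 in the second genotype). Replicate numbers were not treated as pairs in the main fits (7 of 12 same-numbered pairs correlated over 0.1). Every column of counts was used.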

Additional observations from a re-analysis of the deposited data

Results flagged for a closer look

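In WT-Tg chow, Cspg4 was at 54.5 CPM in library 4, far below the other 5 libraries of that group, which had 101.9 to 133.4 CPM. It was the 1 case among 40 combinations of gene and group in which an extreme library lay past Dixon's 95% limit, and chance alone marks about 1 in 20. That library is lymph-node-containing and held 2311 CPM of skeletal muscle markers. The D316A effect differed between the diets for 2 genes: Lmod1, by 2.52 on the log2 scale, and Cspg4, by -1.29. D316A-Tg HFD 7 held the highest Lmod1 level and the highest skeletal muscle marker level of all libraries. In the 13 libraries without lymph node the differences were 2.46 for Lmod1 (SE 0.53, edgeR adjusted p = 0.0157) and -1.70 for Cspg4 (SE 0.458, edgeR adjusted p = 0.0397).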

How the results depend on the processing

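Of 350 values of the 10 genes under settings that changed the fit, 267 kept direction and side of the threshold, 27 were no longer past it, 27 newly passed it and 29 changed sign. Of 960 values with 1 library left out, the counts were 864, 69, 9 and 18. The causes were not tested. RLE scaling changed no count of called genes by over 1.5 times.

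On chow, the 1303 genes called became 2977 with DESeq2, 524 with no filter, 2305 without lymph-node-containing libraries, 4412 with a lymph node term, 239 with the muscle score, 2446 with both terms, 3615 in 1 fit of 24 libraries, and 338 or 501 without lymph-node-containing libraries and WT-Tg 5 or 6. Leaving out 1 library gave 140 to 3360. Of the 10 genes, 3 called became 7 with DESeq2, 7 without lymph-node-containing libraries, 7 with the lymph node term, 0 with the muscle score, 5 with both terms, 5 in 1 fit, 8 without WT-Tg 6 as well, and 0 to 5 with 1 library left out. Cspg4 reversed to -0.17 with both terms.

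On HFD, 1241 genes became 2802 with DESeq2, 795 with no filter, 79 with the lymph node term, 0 without lymph-node-containing libraries, 0 with the muscle score, 0 with both terms, and 326 to 3919 with 1 library left out. The 2 of the 10 became 0 in the last 3 of these settings, 1 in 1 fit, and 2 to 5 with 1 library left out. Without lymph-node-containing libraries the log2 fold changes turned positive for Acta2 (0.98), Myh11 (0.046), Tagln (0.068), Cnn1 (0.26), Myl9 (0.020) and Smtn (0.11). With the lymph node term Acta2 (0.30) and Cnn1 (0.23) did, with the muscle score Acta2 (0.37), Myh11 (0.022) and Cnn1 (0.083), and with both Acta2 (1.11), Myh11 (0.20), Tagln (0.075) and Cnn1 (0.46). Lmod1 turned to -1.03 with the muscle score and -1.003 with both. Acta2 was -0.48 to 0.14 with 1 library left out.

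For the difference between diets, 2080 genes became 1037 with the lymph node term, 252 with the muscle score, and 1368 to 4304 with 1 library left out. The 2 of the 10 became 7 without lymph-node-containing libraries, 0 with the muscle score, and 1 to 3 with 1 library left out. Cnn1 turned to -0.29 with the muscle score and was -0.12 to 1.29 with 1 library left out, and Myl9 was -0.13 to 0.38. Rgs5 turned to 0.42 without lymph-node-containing libraries and 0.088 with the term, and Pdgfrb to 0.076 and 0.097.

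For HFD against chow in WT-Tg, 9709 genes were 8835 to 10317 with 1 library left out, and the 4 of the 10 became 2 with no filter, 2 with the muscle score and 2 to 4 with 1 library left out. Pdgfrb turned to -0.16 without lymph-node-containing libraries, to -0.18 with the term, and was -0.0036 to 0.17 with 1 library left out. Smtn, at -0.02, became 0.014 with RLE scaling, 0.014 with DESeq2, 0.041 with no filter and 0.15 with the muscle score, and was -0.12 to 0.25 with 1 library left out. In D316A-Tg, 5975 genes were 5291 to 6243, and the 3 of the 10 became 1 with the muscle score and 1 to 4 with 1 library left out. Without lymph-node-containing libraries Myh11 (0.37), Tagln (0.40), Cnn1 (0.36) and Myl9 (0.26) turned positive, as did Myl9 (0.025) with the term. With 1 library left out Myh11 was -0.23 to 0.063 and Rgs5 -0.015 to 0.25.

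Same-numbered WT-Tg or D316A-Tg libraries of the 2 diets had correlated deviations of -0.37 to 0.61 (median 0.24), and 6 of 24 libraries correlated best with their own number. These values do not settle whether the numbers pair libraries, and the main fits did not treat them as pairs. With the replicate block anyway, 1 of the 10 was called for the difference between diets (2 without it), 2 for HFD against chow in WT-Tg (4 without it), where Smtn was 0.085, and 2 in D316A-Tg (3 without it).

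Both-terms fits and the fits without WT-Tg 5 or 6 were added after the data were seen. Of the 10 genes, depth limited Cnn1 most, at 0.236 to 5.84 CPM.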
